A study of Mus musculus with 27 samples.

Results

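Retinal ganglion cells are the neurons whose axons form the optic nerve. The comparison described here sets injured wild-type retinal ganglion cells given interferon gamma (IFNγ) against injured wild-type cells given the vehicle PBS. Its members were chosen by their labels alone: 3 libraries of wild-type cells with IFNγ and 3 with PBS, which are 6 of the 12 retinal libraries and of the 27 libraries of the series. Per the series text, mice with a floxed Ptpn2 gene received AAV carrying Cre or GFP in the eye, and the optic nerve was injured 2 weeks later. IFNγ was given into the eye directly after the injury, and the cells were taken 3 days later. The labels name the genotype of the 6 libraries wt and do not say which vector these eyes had; all 12 retinal libraries share the nerve injury. The other 6 libraries are labelled Ptpn2 KO, 3 with PBS and 3 with IFNγ. Single cells were moved into lysis buffer and amplified with SMART-seq2 from polyadenylated RNA. The sources used here give neither the number of cells in a library nor whether replicates are separate animals, so the tests measure the spread between libraries, which may be technical.

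IFNγ binds a receptor made of the chains Ifngr1 and Ifngr2, whose kinases Jak1 and Jak2 pass the signal on to the nucleus. There it acts through a promoter element called GAS and another called ISRE, which is bound by the IRF factors. Known targets include the class I major histocompatibility complex (MHC), which presents peptides to CD8 T cells, the immunoproteasome and the TAP transporter that supply those peptides, and antiviral proteins of the OAS, IFIT, GBP and IRG families. Ptpn2 is a phosphatase known to remove phosphate from proteins of the JAK-STAT pathway.

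The promoter windows of 4 genes are shown because they hold GAS or ISRE letters close to the start site. Sequences and start sites are RefSeq's, on mouse build GRCm38.p6, printed 5′ to 3′ on the strand of the gene. Capitals mark matches to the GAS letters (TTC, any 3 bases, GAA) or the ISRE letters (GAAA, any 2 bases, GAAA). Both were searched on both strands, so an ISRE on the other strand reads TTTC, any 2 bases, TTTC. Overlapping matches run together in 1 block of capitals, as in Irgm1.
B2m: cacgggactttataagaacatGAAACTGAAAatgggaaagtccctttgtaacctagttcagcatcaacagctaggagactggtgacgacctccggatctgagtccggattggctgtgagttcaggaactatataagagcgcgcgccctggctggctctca
Ifit1: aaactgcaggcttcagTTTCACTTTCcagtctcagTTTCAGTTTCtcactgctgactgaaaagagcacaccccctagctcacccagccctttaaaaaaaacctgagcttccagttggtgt
Irgm1: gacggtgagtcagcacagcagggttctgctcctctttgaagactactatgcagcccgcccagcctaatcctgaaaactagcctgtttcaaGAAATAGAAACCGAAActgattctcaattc
Irf1: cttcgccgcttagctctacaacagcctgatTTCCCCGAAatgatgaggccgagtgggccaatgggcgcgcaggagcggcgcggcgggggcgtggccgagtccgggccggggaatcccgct

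B2m is at chr2:122147686-122153083 on the plus strand, and its window is chr2:122147527-122147686. The Ifit1 window is chr19:34640769-34640888, that of Irgm1 chr11:48871421-48871540 on the minus strand and that of Irf1 chr11:53769894-53770013. The GENCODE gene models can begin elsewhere: Irgm1 spans chr11:48861968-48871683 there, so its window lies within that model, and Ifit1 spans chr19:34640871-34650009, which begins before the end of its window.

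The 6 libraries held 13239988 to 17122057 counts over 12502 to 13866 detected genes, and a count of 3 in a library, taken as the floor of detection, corresponded to 0.174 to 0.287 CPM. Levels below are CPM, library-size-scaled counts with TMM normalization, given for replicates 1, 2 and 3 in that order; floors and counting intervals cover counting error only. Ganglion cell markers were present: 19 or 20 of 21 markers reached the floor in each of the 6 libraries, among them the RNA-binding protein Rbpms, the glutamate transporter Slc17a6 and the synuclein Sncg. Wild-type PBS replicate 3 stood apart in rod markers, with a summed level of 794 CPM and 17 of 18 markers at the floor or above, against 43.3 to 224 CPM and 3 to 11 markers in the other 5 libraries. Knockout PBS replicate 2 stood apart in microglia markers, with a summed level of 2530 CPM against 36.9 to 223 CPM in the other 11 retinal libraries. For some results, values without these libraries are given beside the main ones. No fit was run without knockout PBS replicate 2, so all knockout and interaction fits below include it. The ribosomal entry CT010467.1 held 22.6% to 35.7% of all counts in these 6 libraries.

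**Figure D1:**
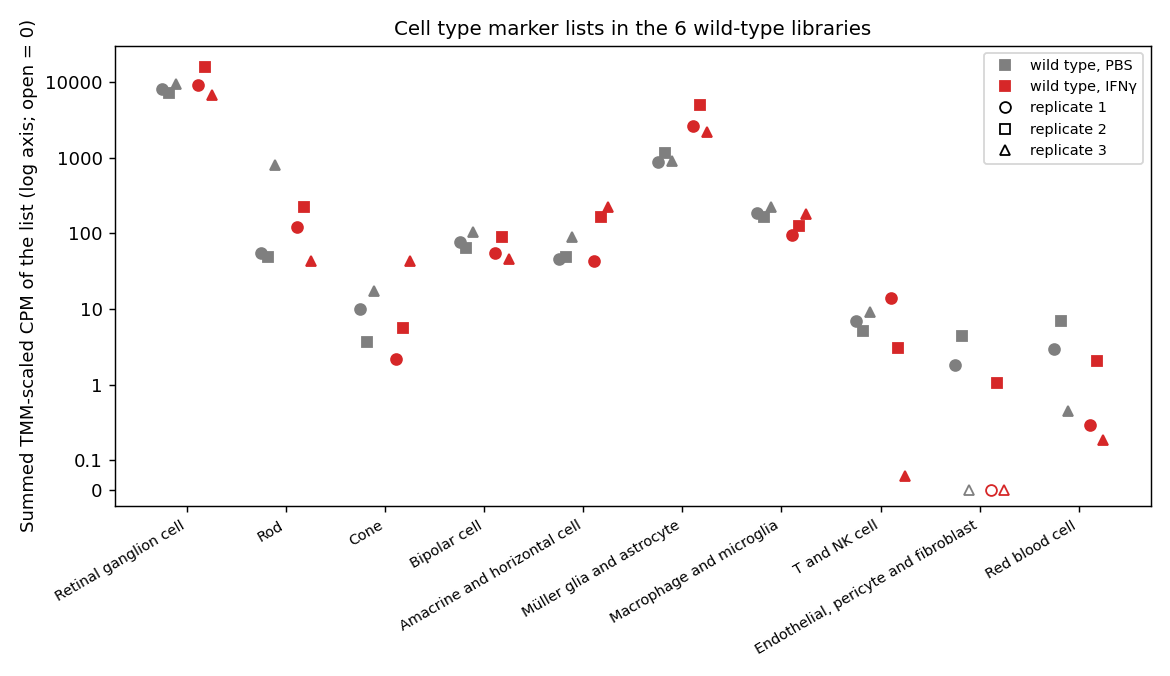
Summed level of each cell type's marker list in the 6 wild-type libraries (TMM-scaled CPM, log axis); each point is 1 library, grey for PBS and red for IFNγ, its shape gives the replicate and open points are at 0. Ganglion cell markers lie at 6840 CPM or more in all 6 libraries, and rod markers reach 794 CPM in PBS replicate 3.

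Some genes of the class I MHC pathway and some antiviral genes were higher in every wild-type library given IFNγ than in every one given PBS. Among them were 6 of 12 tested class I chains and 4 of 9 tested genes of peptide loading. The share over all genes tested was 5.02%. The IFNγ receptor and JAK genes overlapped between the groups. B2m, which encodes the invariant microglobulin subunit common to class I molecules, stood at 1591, 3472 and 1309.5 CPM with IFNγ against 102, 446 and 125 CPM with PBS. H2-K1, a classical class I heavy chain, stood at 1029.9, 3048 and 1072 CPM against 87.4, 212 and 100.2 CPM. Oasl2, an antiviral protein of the OAS family, had no count in any PBS library and 9.54, 80.7 and 118 CPM with IFNγ. No gene passed the threshold of the main test, that of edgeR, across all genes. In that test these are differences between libraries of high spread, not called changes. An alternative tool, DESeq2, did call B2m, H2-K1 and Oasl2 (DESeq2 adjusted p = 5.16e-06, 2.33e-07 and 4.05e-13). Where a library holds RNA of more than 1 cell, fewer cells with a transcript and less of it in each cell cannot be told apart.

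With Benjamini-Hochberg adjustment, the quasi-likelihood test of edgeR called 0 of 13487 genes (0%) at an adjusted p under 0.05. At an unadjusted p under 0.05 it counted 542 genes (4.02%), 305 of them higher with IFNγ and 237 lower. DESeq2 called 205 genes, 122 higher and 83 lower, and limma-voom called 0. Of the 205, 163 had no count in any library of one group. The lists of interferon genes held 27 of the 205, beside 154 of the 13487 genes tested. Among the 27 were B2m, H2-K1 and Tap1, which had counts in both groups (DESeq2 adjusted p = 2.35e-07 for Tap1). The biological coefficient of variation was 1.27, which means that a gene's level typically varied by more than its own mean between libraries of a group. The smallest adjusted p was 0.0928, shared by Oasl2 and Psmb9, a catalytic subunit of the immunoproteasome. Of the 10 genes with the smallest p, 6 were in the lists of interferon genes (Oasl2, Psmb9, H2-K1, Tap1, B2m and Gbp6), and another was H2-Q5, a class I gene in none of the lists, with no count in PBS and 11.6, 64.5 and 13.4 CPM with IFNγ.

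A second reading of the data counted genes whose 3 IFNγ libraries all lay above the 3 PBS libraries, here called higher without overlap. Over all genes tested these were 677 (5.02%), and 563 (4.17%) were lower without overlap. The 15 lists of interferon genes held 241 genes of the table, of which 154 passed the filter on low counts and were tested. Of these, 30 (19.5%) were higher without overlap and 3 (1.95%) lower. Among the 30, Tnf, Gbp3 and Ifit3 each had an IFNγ library below the floor of 3 counts. Bst2 and Herc6 were separated by few counts. Their lowest IFNγ libraries had 4 and 8 counts, against 3 and 5 in their highest PBS libraries. The median log2 difference of the 154 genes was 0.77, against -0.02 over all genes tested; with groups at 0 set to their detection bound, it was 0.86 against -0.03. Leaving out 1 library gave medians from 0.29 (without IFNγ replicate 2) to 1.21 (without PBS replicate 2), against -0.10 to 0.02 over all genes. All 30 were also higher without overlap under plain CPM and under DESeq2's size factors. Without wild-type PBS replicate 3, 37 of the 154 (24%) and 1247 of all genes tested (9.25%) were higher without overlap. The lists and the members named were chosen with earlier results of these libraries known, so these shares describe the lists and are not a test of them.

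**Figure D2:**
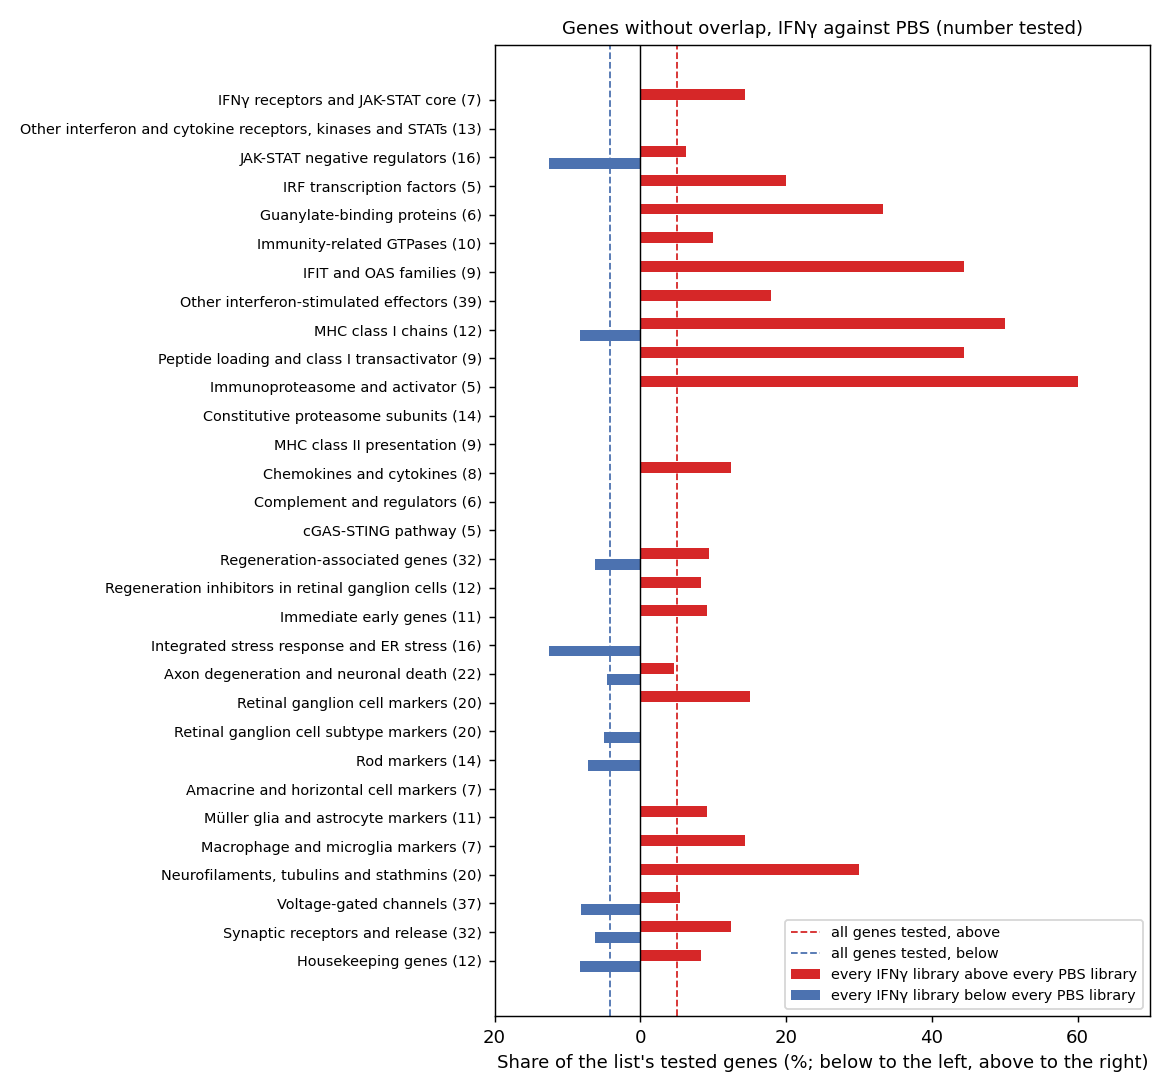
Share of each list's tested genes (%) whose 3 IFNγ libraries all lay above (red, to the right) or below (blue, to the left) the 3 PBS libraries of wild type, with the number of genes tested in brackets and dashed lines at 5.02% and 4.17%, the shares over all genes tested. The immunoproteasome (60%), class I chains (50%), peptide loading (44.4%) and the IFIT and OAS families (44.4%) have the longest bars to the right, and the constitutive proteasome has none.

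The receptor and kinase genes overlapped between the groups. Ifngr1, the ligand-binding chain of the receptor, stood at 12.5, 24.9 and 3.84 CPM with PBS and 9.88, 33.5 and 13 CPM with IFNγ, a log2 difference of 0.45 ± 0.94 (SE). Ifngr2, the signalling chain, had 90.4, 86.2 and 47 and 55.3, 94 and 32 CPM, a log2 difference of -0.30 ± 0.52 (SE). The groups overlapped for both chains, and each standard error was larger than its estimate. The kinase Jak1 lay at 56.3, 41.7 and 36.8 CPM with PBS and 36.3, 43.5 and 52.5 CPM with IFNγ. Its partner Jak2 was low and scattered, at 4.11, 1.05 and 1.92 and 0, 3.62 and 24.7 CPM. The groups overlapped for both kinases, and IFNγ replicate 3 had the highest Jak2 level.

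Of the factors downstream, Irf9, a DNA-binding subunit of the factor that binds ISRE, was higher in every IFNγ library. It stood at 35.5, 63.4 and 73.3 CPM against 9.57, 11.7 and 2.43 CPM, a log2 difference of 2.86 ± 0.73 (SE). Irf1, a classical early target of IFNγ, had no count in PBS, and 0, 1.59 and 4.77 CPM with IFNγ; its level was at least 9.29-fold higher with IFNγ on the mean, although IFNγ replicate 1 had none. The 7 genes of the receptor, JAK and STAT core had a median log2 difference of 0.45. Leaving out 1 library gave -0.03 (without IFNγ replicate 2) to 1.20 (without PBS replicate 2). Of the 7, 1 (14.3%), Irf9, was higher without overlap, beside 5.02% over all genes tested. Among 16 tested negative regulators of the pathway, 1 (6.25%) was higher and 2 (12.5%) lower without overlap. Over all genes tested these shares were 5.02% and 4.17%, so 1 higher gene is near the share over all genes. The higher one was Cish, a SOCS family inhibitor, at 49.4, 81.8 and 55.7 CPM against 32.9, 17.9 and 20.1 CPM, a log2 difference of 1.40 ± 0.69 (SE). Ptpn2 itself, the gene the series targets, had 10.5, 7.26 and 3.39 CPM with PBS and 0, 9.88 and 14.1 CPM with IFNγ, so the groups overlapped. In the libraries labelled Ptpn2 KO it was counted at 10.1, 8.07 and 7.71 CPM with PBS and 15.5, 0 and 23.9 CPM with IFNγ. These gene counts do not separate the knockout labels from wild type, and whether they hold reads of the deleted part was not tested.

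**Figure D3:**
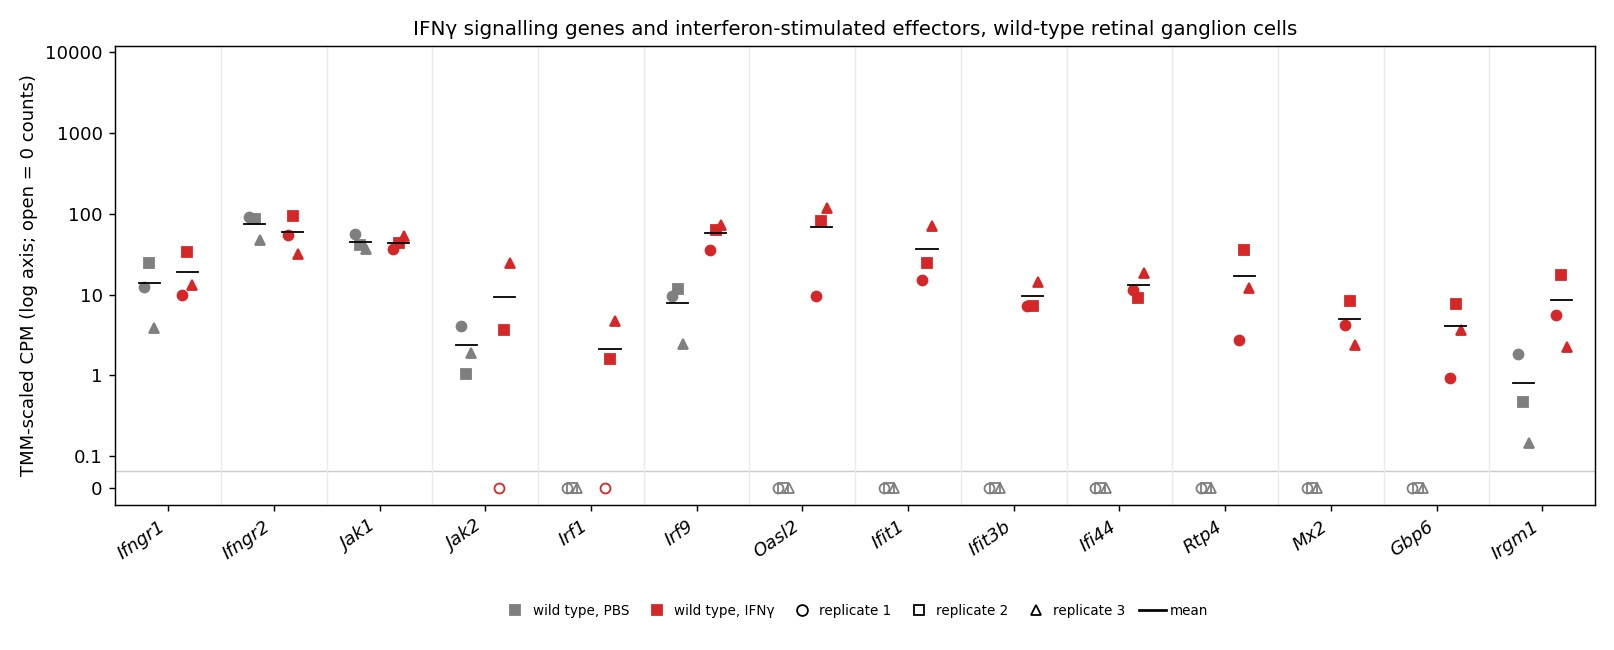
Levels of IFNγ signalling genes (left) and interferon-stimulated effectors (right) in each wild-type library (TMM-scaled CPM, log axis), grey for PBS and red for IFNγ; shapes give the replicate, bars the mean of 3 libraries, and open points have 0 counts. The receptor chains, Jak1 and Jak2 overlap between the groups, while Irf9 and the 8 genes from Oasl2 to Irgm1 lie higher in every IFNγ library.

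Antiviral effectors included several genes without any PBS count. Over all genes tested, 52 (0.386%) had 0 counts in every PBS library and 3 or more in every IFNγ library, and 30 (0.222%) showed the reverse. Of the 52 genes, 10 were in the interferon lists, and of the 30 none was. The lists held 154 of the 13487 genes tested. The filter on low counts keeps a gene that is high enough in libraries of any group. Genes at 0 in one group could thus enter through another where they were high, so these counts are a description. The level of Oasl2 was at least 304-fold higher with IFNγ, taking 3 counts per library as the bound for PBS. Ifit1, which binds viral RNA, had 15.1, 24.5 and 70.4 CPM with IFNγ and was at least 161-fold higher. Rtp4, at 2.73, 35.7 and 12.1 CPM, was at least 73.9-fold higher, and Ifi44, at 11.5, 9.09 and 18.5 CPM, at least 57.1-fold. The other 6 of the 10 were Ifit3b, Psmb9, the dynamin-like GTPase Mx2, Apol9a, Gbp6 and Nlrc5, with bounds from 15.7-fold for Nlrc5 to 41.9-fold for Ifit3b. Ifit3 and Ifit3b are near-identical copies, as are members of the Apol9 and GBP families, so counts may be split between copies.

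In the IFIT and OAS families, 4 of 9 tested genes (44.4%) were higher without overlap, beside 5.02% over all genes tested. No PBS count was found for 12 of the 14 listed. Of the 4, Ifit3 had 1 count in IFNγ replicate 1, below the floor. Ifit2 held most of the list's PBS level, at 39.1, 60.5 and 12.2 CPM of a summed 39.1, 69.5 and 15.9 CPM. It had 29.5, 74.5 and 65 CPM with IFNγ, and its groups overlapped. The ubiquitin-like Isg15 was low, with 10, 3 and 0 counts (0.581, 0.265 and 0 CPM) with IFNγ and none with PBS, so 2 IFNγ libraries reached the floor. Of 39 other tested effectors, 7 (17.9%) were higher without overlap and 0 lower, beside 5.02% and 4.17% over all genes tested. The median log2 difference of the 39 effectors was 1.84. It was 0.74, 0.38 and 0.35 without IFNγ replicates 1, 2 and 3 in turn and 1.13 without PBS replicate 2.

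Most of the guanylate-binding proteins, which are interferon-induced GTPases, were not detected. All 11 guanylate-binding proteins had 0 counts in every PBS library, and 4 of the 11 had any count in the wild type. Gbp6 was present in all 3 IFNγ libraries, at 0.93, 7.68 and 3.66 CPM, and was at least 17.9-fold higher. Gbp7 stood at 0, 6.44 and 15.4 CPM and Gbp3 at 0.116, 4.41 and 0.434 CPM, and Gbp2 appeared in replicate 2 alone at 2.74 CPM. The level of Gbp3 in IFNγ replicate 1 was 2 counts, below the floor. Of 10 tested immunity-related GTPases 1 (10%) was higher without overlap, beside 5.02% over all genes tested. It was Irgm1, a regulator of the family, at 5.64, 17.7 and 2.23 CPM against 1.82, 0.469 and 0.148 CPM, a log2 difference of 3.41 ± 1.04 (SE). Iigp1, another member of the family, had 0 counts in all 6 libraries. A gene at 0 is below the detection floor, not shown to be absent.

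Class I molecules display peptides at the cell surface. Of 12 tested class I chains 6 (50%) were higher and 1 (8.33%) lower without overlap, and 5 overlapped. The shares over all genes tested were 5.02% and 4.17%. The median log2 difference of the 12 chains was 2.27, and 1.23 without IFNγ replicate 2. B2m averaged 2124 ± 1176 CPM with IFNγ against 224 ± 192 CPM (mean ± SD, n = 3), a log2 difference of 3.24 ± 0.64 (SE) (edgeR adjusted p = 0.476). For H2-K1 the means were 1717 ± 1153 and 133 ± 68.8 CPM and the log2 difference 3.69 ± 0.67 (SE) (edgeR adjusted p = 0.393). The lowest IFNγ library lay above the highest PBS library for both genes, and IFNγ replicate 2 was the highest. The other classical chain, H2-D1, had 1472, 3603 and 1732 CPM with IFNγ against 373, 894 and 222 CPM, a log2 difference of 2.19 ± 0.57 (SE).

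Of the other chains, 3 were also higher without overlap. H2-Q6 stood at 53.5, 422 and 149 CPM against 6.79, 36.7 and 1.77 CPM, a log2 difference of 3.78 ± 0.97 (SE). H2-Q7, a Qa-2 antigen, stood at 44.2, 168 and 69.4 CPM against 0.574, 0.0586 and 10.3 CPM, a log2 difference of 4.69 ± 1.31 (SE). H2-M3, which presents formylated peptides, had 16.6, 26.6 and 26.9 CPM against 0, 5.15 and 0 CPM, a log2 difference of 3.75 ± 1.79 (SE), and 2 PBS libraries were at 0. H2-T23, a Qa-1 antigen, was among the 5 chains that overlapped, at 63.4, 295 and 20.5 CPM against 17.4, 27.9 and 29.1 CPM. H2-T24 was lower without overlap, at 0, 0.441 and 1.42 CPM against 4.59, 4.1 and 8.56 CPM. Chains of the Q region are close in sequence, so the split of counts between H2-Q5, H2-Q6 and H2-Q7 is uncertain.

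Several genes that load peptides onto class I were higher in every IFNγ library. Tap1, a subunit of the transporter that moves peptides into the endoplasmic reticulum, stood at 22.8, 8.56 and 17.8 CPM with IFNγ against 0.0957, 0.82 and 0 CPM with PBS. Its log2 difference was 5.64 ± 1.10 (SE) (edgeR adjusted p = 0.476). Tap2, the other subunit, had 3.2, 2.21 and 2.23 CPM, and 3 counts in all PBS libraries together, a ratio of 35.6 (exact 95% counting interval 11.9 to 175). Nlrc5, the transactivator of class I genes, had 2.44, 6.88 and 1.42 CPM and no PBS count. Pdia3, a disulphide isomerase of the loading complex, was higher by 1.05 ± 0.48 (SE) on the log2 scale, at 346, 388 and 204 against 198, 196 and 57.8 CPM. With Tap1, Tap2, Nlrc5 and Pdia3, 4 of 9 tested genes of the list (44.4%) were higher without overlap and 0 lower. Over all genes tested the shares were 5.02% and 4.17%. The median log2 difference of the list was 1.05, or 0.59 without IFNγ replicate 2.

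The immunoproteasome and the constitutive proteasome differed in their counts of genes without overlap. Psmb8, Psmb9 and Psmb10 are the catalytic subunits that replace constitutive ones after IFNγ, and all 3 were higher without overlap. They were 3 of 5 tested genes of the immunoproteasome list (60%), beside 5.02% over all genes tested. Psmb9 had no PBS count and 9.3, 11.3 and 3.9 CPM with IFNγ, at least 35.8-fold higher. Psmb8 stood at 26.6, 44.5 and 9.23 CPM against 2.77, 0 and 0 CPM, a log2 difference of 4.90 ± 1.45 (SE). Psmb10 differed less, at 42.3, 49.7 and 43.1 CPM against 33.1, 23.1 and 32.3 CPM, a log2 difference of 0.61 ± 0.49 (SE). The activator subunits Psme1 and Psme2 overlapped between the groups, Psme1 at 37.2, 64.5 and 110.1 CPM with PBS and 40.6, 48.9 and 99.6 CPM with IFNγ. None of 14 tested constitutive subunits was higher or lower without overlap, and their median log2 difference was -0.20, or 0.14 without PBS replicate 3.

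**Figure D4:**
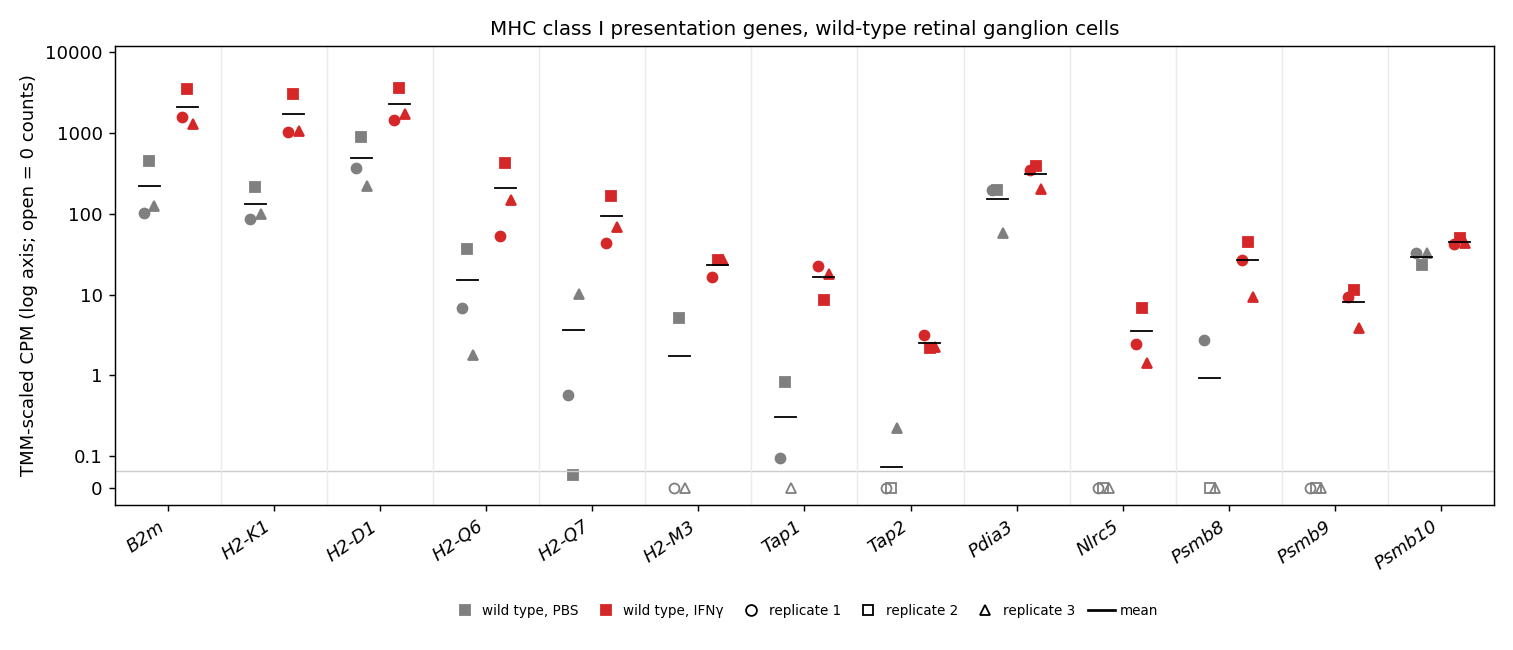
Levels of class I chains, peptide loading genes and immunoproteasome subunits in each wild-type library (TMM-scaled CPM, log axis), grey for PBS and red for IFNγ; shapes give the replicate, bars the mean of 3 libraries, and open points have 0 counts. For all 13 genes the lowest IFNγ library lies above the highest PBS library.

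Class II presentation and chemokines did not follow this pattern. None of 9 tested class II genes was higher or lower without overlap, and the class II transactivator Ciita had counts in 1 library, IFNγ replicate 2. The chemokine Cxcl10, a common IFNγ target, had 0 counts in all 6 libraries, and Cxcl9 had 0.766, 0 and 0 CPM with PBS and 0 with IFNγ. Of 8 tested chemokines and cytokines 1 (12.5%) was higher without overlap, the cytokine Tnf, beside 5.02% over all genes tested. Tnf stood at 9.88, 0.883 and 0.124 CPM with IFNγ and had no count with PBS. Its level in IFNγ replicate 3 was 2 counts, below the floor, so that library is not separated from PBS. None of 6 tested complement genes and none of 5 tested genes of the cGAS-STING pathway was higher or lower without overlap. Cd274, the checkpoint ligand PD-L1, stood at 3.61, 10.1 and 23 CPM with IFNγ and 4.02, 0 and 0 CPM with PBS, with overlap.

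RefSeq promoter windows, 250 bases before to 50 after each annotated start, were found by symbol for 25 of the 30 interferon genes that were higher without overlap. An ISRE was present in 8 of the 25 (32%), against 3.99% of all genes with a window. A GAS was present in 5 (20%), against 9.55%, and either motif in 12 (48%), against 12.9%. Of the other genes higher without overlap, 485 had a window and 8.25% held either motif. In B2m the ISRE lay 139 bases before the start, in Ifit1 copies lay 104 and 85 bases before it, and in Irgm1 overlapping copies began 30 and 24 bases before it. GAS letters lay 90 bases before the start of Irf1. All distances are from RefSeq's starts. A match describes the letters and does not show that a factor was bound. The 25 genes come from lists of interferon genes, and the share in list genes that were not higher was not computed. The shares therefore cannot tell the choice of list from the separation in these libraries.

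Cells labelled Ptpn2 KO held many of these transcripts without added IFNγ. The comparison of PBS libraries shares the wild-type PBS libraries with the main comparison, so the values are set side by side without a test of their likeness. Of the 154 interferon genes, 31 (20.1%) were higher without overlap in knockout than in wild-type PBS cells, against 691 (5.12%) of all genes tested. Without knockout PBS replicate 2 they were 37 (24%), against 9.08%. For B2m the knockout PBS libraries had 1317, 2590.0 and 1136 CPM, and the knockout IFNγ libraries 5611, 4087 and 1873 CPM. For Tap1 they had 47.6, 67.1 and 26.2 and 45.3, 50.5 and 69.9 CPM, all above the wild-type IFNγ libraries. Of the 30 interferon genes higher without overlap in wild type, 18 had a higher mean in knockout PBS than in wild-type IFNγ cells, and 11 when knockout PBS replicate 2 was left out. Ifi44 and Ifit3b had no count in any knockout PBS library.

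Whether the difference between IFNγ and PBS depended on genotype was tested as an interaction. For it edgeR called 0 of 13487 genes (0%), with 721 at an unadjusted p under 0.05 and a smallest adjusted p of 0.105; DESeq2 called 329. The smallest adjusted p among the 154 interferon genes was 0.249. In the knockout, edgeR called 0 genes for IFNγ against PBS (0%; 879 at an unadjusted p under 0.05), and 10 of the 154 genes (6.49%) were higher without overlap, against 829 (6.15%) of all genes. Without knockout PBS replicate 2, the library with microglia markers, 37 of the 154 (24%) and 12.6% of all genes were higher without overlap. Leaving out any library makes separation easier. The other knockout libraries were not left out in turn, so whether the count rests on this library was not tested. Of the 30 genes higher without overlap in wild type, 28 had a larger fitted log2 difference there than in the knockout. In the knockout, 27 of the 30 had a positive difference. Several of the 30, such as Oasl2 and Psmb9, had no count in any wild-type PBS library. Fitted wild-type differences of such genes are set by the zeros and are no measure of size, so their order is not informative. B2m had a log2 difference of 1.20 ± 0.59 (SE) in the knockout, H2-K1 0.93 ± 0.61 (SE), Irf9 0.01 ± 0.68 (SE) and Tap1 0.23 ± 0.88 (SE). The wild-type genes were picked for their separation in wild type, so the order of the differences is a description, with no test beyond the interaction.

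**Figure D5:**
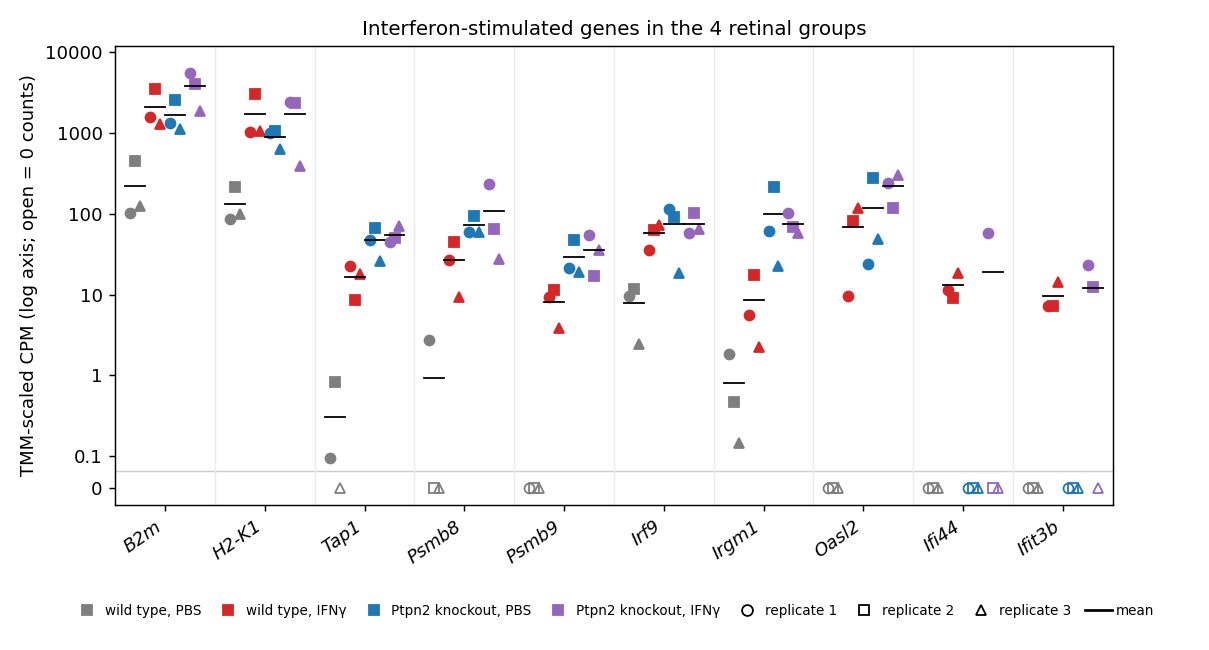
Levels of 10 interferon-stimulated genes in the 12 retinal libraries (TMM-scaled CPM, log axis), by group: wild type with PBS (grey) and IFNγ (red), and libraries labelled Ptpn2 KO with PBS (blue) and IFNγ (purple); shapes give the replicate, bars the mean of 3 libraries, open points have 0 counts. The knockout PBS libraries of B2m, Tap1, Psmb8 and Psmb9 lie above all wild-type PBS libraries, and those of Ifi44 and Ifit3b are at 0.

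Among neuronal genes, the cytoskeletal list had the most members higher without overlap. The tubulins, Gal, Myc, Tnfrsf12a and Klf6 were singled out after their values were seen. Of 20 tested neurofilament, tubulin and stathmin genes 6 (30%) were higher without overlap and 0 lower, beside 5.02% and 4.17% over all genes tested. Their median log2 difference was 0.71, or 0.36 without IFNγ replicate 2. Tubb3, the neuronal beta-tubulin, stood at 764, 1958 and 533 CPM against 239, 289 and 364 CPM. Tubb2a, another axonal tubulin, had 414, 1368 and 495 against 234, 230.5 and 138 CPM. The other 4 genes were Tubb4a, Tuba1b, Tuba4a and the heavy neurofilament Nefh. In the list of synaptic receptor and release genes, 4 of 32 (12.5%) were higher and 2 (6.25%) lower without overlap, beside the same shares over all genes tested.

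Of 32 tested regeneration-associated genes 3 were higher and 2 lower without overlap, shares of 9.38% and 6.25% beside 5.02% and 4.17% over all genes tested. In a list of this size these shares without overlap are near those over all genes. At an unadjusted p under 0.05, edgeR counted 8 of the 32, 5 higher and 3 lower, beside 4.02% of all genes tested. None was called after adjustment, and the members below are described by their own values. The neuropeptide gene Gal had 19.9, 482 and 25.3 CPM with IFNγ, with IFNγ replicate 2 far above the rest, against 2.01, 5.45 and 14.5 CPM with PBS. Myc, a growth-promoting transcription factor, had 138, 95.1 and 65.2 against 21.2, 35.2 and 6.27 CPM. Tnfrsf12a, a receptor induced by axon injury, was lower, at 590.0, 579.8 and 419 against 921, 925 and 992 CPM, as was the transcription factor Klf6, at 163, 140.2 and 164 against 206, 465 and 216 CPM. Gap43, a growth cone protein, overlapped at 2564, 3909 and 1312 and 2908, 1488 and 2053 CPM, and Atf3, an injury-induced factor, at 1629, 1799 and 2299.7 and 1773, 1266 and 412 CPM. Sprr1a, another injury-induced gene, ranged over 11673, 30.6 and 0 CPM among the PBS libraries alone.

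The 5 genes with the smallest p among those lower with IFNγ were in none of the lists. They were Zswim8, Rxra, Acadm, Fam222b and Smim20. Zswim8, a substrate receptor of a ubiquitin ligase that controls microRNA decay, stood at 5.17, 7.59 and 9.54 CPM against 71.8, 47.4 and 34.3 CPM, a log2 difference of -2.78 ± 0.64 (SE). Rxra, a retinoid receptor, had no count with IFNγ and 10.6, 1.99 and 14.3 CPM with PBS, and was at least 43.1-fold lower. Acadm, an enzyme of fatty acid oxidation, had 1.34, 0.53 and 0.558 against 16.3, 17.3 and 9.96 CPM, a log2 difference of -4.15 ± 0.97 (SE). Fam222b and Smim20 differed by -2.02 ± 0.55 (SE) and -1.58 ± 0.47 (SE) on the log2 scale. The cyclin gene Ccnd1 was also at 0 in every IFNγ library, against 8.33, 7.67 and 10.5 CPM with PBS.

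Markers of other cells were compared with the groups. Of 18 macrophage and microglia markers, 13 had any count in the 6 libraries, and their summed level was 166 to 223 CPM with PBS and 95.2 to 180 CPM with IFNγ, most of it from Cd68. The microglial markers P2ry12, Adgre1, Itgam and Trem2 were at 0 in all 6 libraries. Cx3cr1 stood at 0.407, 0.706 and 0.31 CPM with IFNγ and 0, 0 and 0.0738 CPM with PBS, near the floor. Csf1r, a growth factor receptor of macrophages, stood at 5.06, 4.59 and 1.8 and 0, 0 and 1.33 CPM. Both were higher in every IFNγ library, but 1 of these 2 did not pass the filter on low counts. Of 7 tested markers of the list, 1 (14.3%) was higher without overlap and 0 lower, beside 5.02% and 4.17% over all genes tested. The summed level of 16 Müller glia and astrocyte markers was 2200 to 4960 CPM with IFNγ and 889 to 1140 CPM with PBS. Most of this sum was Clu, a chaperone that neurons can hold too, at 2188, 4589 and 1958 CPM against 842, 1009 and 573 CPM, a log2 difference of 1.85 ± 0.66 (SE). Of 11 tested markers of this list, 8 had a positive and 3 a negative log2 difference, with a median of 1.21. Clu was the 1 of the 11 (9.09%) higher without overlap, and 0 were lower, beside 5.02% and 4.17% over all genes tested. Markers at the floor or above numbered 10, 11 and 7 with IFNγ and 6, 7 and 8 with PBS. The glial markers Aqp4 and Gfap were at 0 in 6 and in 5 of the 6 libraries, and Rlbp1 overlapped, at 84.2, 26.6 and 15.7 and 5.26, 22.4 and 10.4 CPM. The part of these cells in the differences above was not tested.

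Rod markers had a median log2 difference of -4.62 over 14 tested genes, and 1.86 without wild-type PBS replicate 3. The sign of this list's median thus rested on 1 library, the one with the highest summed rod level. The summed T and NK cell markers stayed at or below 14.1 CPM in all 6 libraries.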

How the data were processed

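Gene counts of 12 libraries of picked mouse retinal ganglion cells were used; the 15 libraries from dorsal root ganglia were not used here. Per the submitters' processing notes, Trim Galore trimmed the reads and STAR aligned them to GRCm38 (mm10). The sources used here do not state versions, the counting program, its annotation or its strand setting. The authors deposited whole-number counts per gene symbol; an unnamed last line was left out, since it repeats the column totals of all 12 libraries and so makes up 50% of the file. Overlapping and antisense genes are uncertain.

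Groups came from the labels. edgeR 4.0.16 in R 4.3.3 was fitted to all 12 libraries, whose 4 groups share 1 estimate of the spread (TMM, filterByExpr with a minimum count of 10 and a minimum total of 15, robust quasi-likelihood fit, Benjamini-Hochberg adjustment over 13487 of 55367 named genes; threshold 0.05). Of the genes tested, 90 had 0 counts in all 6 wild-type libraries. Fold bounds use 3 counts per library. Gene coordinates are from the GENCODE annotation of GRCm38 and promoter sequences from RefSeq (GRCm38.p6). Alternatives included limma 3.58.1, DESeq2 1.42.0, other scaling and filters, and each wild-type library left out. The script was tested on simulated data. No 2 libraries held the same counts.

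Genes were named by rule: B2m, H2-K1, Oasl2, Ptpn2, the receptor and JAK-STAT core, the 5 smallest p-values in each direction, the 2 highest members of each list, and up to 3 members of each interferon list that were higher without overlap. Some genes that the rule names are not reported here. Other genes named were chosen after their values were seen. The comparison, the 38 gene lists and the tests were chosen with earlier results of these data known.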

Additional observations from a re-analysis of the deposited data

How the results depend on the processing

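Of 20 genes whose log2 difference is given, 18 kept their sign in every alternative tried. The other 2 turned when 1 library was left out: Ifngr1 ranged from -0.28 to 1.2 and Ifngr2 from -0.79 to 0. Sizes moved more: without PBS replicate 2 the log2 difference was 8.31 rather than 5.64 for Tap1, 5.61 rather than 3.78 for H2-Q6 and 4.23 rather than 3.24 for B2m, and without PBS replicate 3 it was 8.31 rather than 4.69 for H2-Q7. Without IFNγ replicate 2 it was 2.67 for B2m, 2.73 for H2-Q6 and 2.29 rather than 3.41 for Irgm1. Psmb8 and H2-M3 had PBS counts in 1 library each, without which their fitted values (11.7 and 11.46) are no bound. The number of genes called for IFNγ in wild type was 0 with DESeq2's size factors, with limma-voom, with the 6 wild-type libraries alone and with the replicate block. It was 2 without the filter on low counts (Gbp6 and Psmb9), 205 with DESeq2 and 1 (Oasl2) with a covariate for detected genes. Leaving out 1 library gave 0 to 1, with Oasl2 called without IFNγ replicate 1. Within the interferon lists these counts were 2, 27 and 1, and 0 to 1. Of the 20 genes followed, 13 passed the threshold with DESeq2 and none with another alternative. DESeq2 gave no adjusted p for 1140 genes. For the interaction the counts were 4 without the filter, 329 with DESeq2, 1 with limma-voom and 1 with the covariate. With a floor of 10 counts, 54 genes rather than 82 were at 0 in one group and above the floor in all of the other, and 10 of the 36 higher with IFNγ were interferon genes. In the 150 bases nearest the start, 8 rather than 12 of 25 promoters held a GAS or ISRE. Same-numbered libraries did not deviate together (correlations of -0.01, 0.01 and 0.001), and 0 correlated best with its own number, so the numbers are not taken as pairs; the replicate block called 0 genes, with 403 at an unadjusted p under 0.05. Left-out libraries were also tried, after the data were seen, for the count of interferon genes higher without overlap, which ranged from 35 to 48 (22.7% to 31.2%) against 8.99% to 10.6% of all genes tested; the highest was without IFNγ replicate 1. Depth limits statements on genes below 3 counts per library.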
